A study of Arabidopsis thaliana with 62 samples.

Results

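Plastid DNA coverage of sig2-2 seedlings was compared with that of wild-type Col0 seedlings in the first of the series' 2 sets of libraries. The libraries were taken by their titles as the 4-day-old Col0 and sig2-2 samples of that set, which gave 12 of the 62 samples in the series: 3 membrane and 3 stroma libraries of each genotype. The series uses an assay its labels call SOLINA, in which chloroplasts are crosslinked, split into a membrane and a stroma fraction, and the DNA of each fraction is sequenced. All 12 samples are labelled as untreated seedlings of ecotype Col0, and per the labels' protocols 4-day-old plants were grown on plates under continuous light, and crosslinking of the chloroplasts lasted 4 h in formaldehyde at 4%. The protocol text attached to these samples describes rosette leaves although tissue and title give seedlings. The first set also holds sig6-1 seedlings and leaves of older wild-type plants kept in light (Day) or darkness (Night). Nothing in the labels says whether replicates were separate cultures, so p-values measure only the spread between the libraries in the fit. Unless stated otherwise that fit held all 30 libraries of the first set, with 1 mean per group. The spread thus includes the sig6-1 libraries and the Day and Night libraries, which differ from the seedlings in age and tissue. SIG2 is a nuclear gene, so the sig2-2 genotype itself was not checked in plastid coverage.

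Plastid genes are read by a bacterial-type polymerase encoded in the plastid and by a phage-type polymerase encoded in the nucleus. The bacterial-type polymerase needs nuclear-encoded sigma factors to find its promoters. SIG2 is known for its part in transcribing a group of plastid tRNA genes, among them trnE, whose product also starts tetrapyrrole and thus chlorophyll synthesis, and of psaJ, which encodes a small subunit of photosystem I. Coverage here is DNA recovered in a fraction and not RNA.

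Mean coverage depth per base ranged from 321 to 468 in Col0 membrane, from 97.7 to 316 in sig2-2 membrane, from 301 to 698 in Col0 stroma and from 205 to 565 in sig2-2 stroma. Each library was divided by its own mean, so every value below is a share relative to that library and a change in 1 region moves the rest. The evenness of coverage differed between libraries. The SD of log2 coverage over 500-bp windows was 0.712 to 0.786 in Col0 membrane, while sig2-2 membrane replicates 1, 2 and 3 had 0.913, 0.707 and 0.960. In sig2-2 stroma it was 0.284, 0.536 and 0.746, against 0.516 to 0.594 in Col0 stroma. The sig2-2 membrane replicate with the shallowest coverage, replicate 3, was also the least even, and replicate 2 was as even as the wild type.

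In the membrane fraction, sig2-2 held less DNA of several tRNA loci of the large single-copy region and slightly more DNA of the inverted repeat. Of 259 windows of 500 bp, 50 (19.3%) passed an adjusted p of 0.05 in limma, with 15 (5.79%) higher and 35 (13.5%) lower in sig2-2, and in 69 windows (26.6%) the libraries of the genotypes did not overlap. The lower windows formed 14 separate stretches, of which 10 held a tRNA gene. Of the 35 lower windows themselves 23 held one, against 41 (15.8%) of all 259 windows. All 15 higher windows lay in 9 stretches without a tRNA gene. When libraries were instead divided by their mean over single-copy windows, which moved the median of all windows by 0.16 on the log2 scale, 68 windows passed, with 44 higher and 24 lower.

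**Figure D1:**
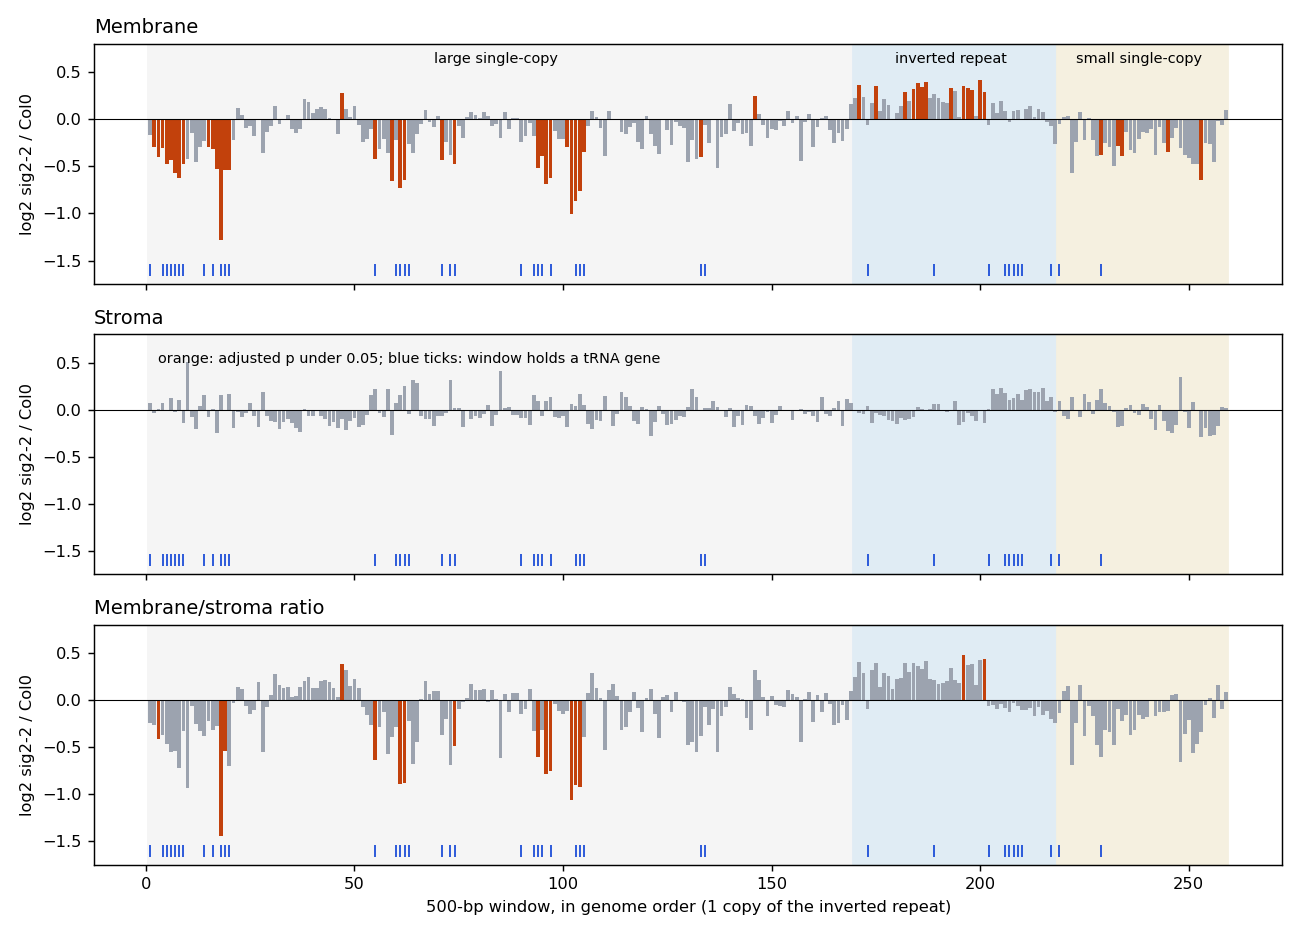
Log2 coverage change of sig2-2 against Col0 in 259 windows of 500 bp in genome order, for membrane, stroma and the membrane/stroma ratio. Bars are orange where the adjusted p in limma was under 0.05 (50 windows in membrane, 0 in stroma, 16 for the ratio), blue ticks mark windows with a tRNA gene, and shading marks the regions.

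The longest stretch of lower windows, Pltd:501-4500 in TAIR10 coordinates, spanned psbA, trnK and matK. A stretch at Pltd:7001-10000 ran from psbK to trnR and held the window that fell most. That window, Pltd:8501-9000, overlapped trnG and had 20% to 50% of its bases outside annotated genes. Its scaled coverage was 0.977, 0.906 and 0.844 in Col0 and 0.397, 0.547 and 0.238 in sig2-2 membrane, a log2 change of -1.29 ± 0.25 (SE, n = 3 against 3, adjusted p = 0.000659 in limma). The groups did not overlap. A stretch at Pltd:50001-52500 covered ndhC, trnV, trnM and the edge of atpE, and a stretch at Pltd:46501-48500 covered trnL and trnF. A pair of windows at Pltd:30001-31000 held trnY and trnE. In the first of them scaled coverage was 1.15, 1.13 and 1.16 in Col0 and 0.704, 0.740 and 0.626 in sig2-2, a log2 change of -0.74 ± 0.07 (SE, adjusted p = 5.99e-08 in limma). The replicates of each genotype lay close together there and far from the other genotype.

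Regions differed in the same fraction. The median log2 change was -0.14 over 169 windows of the large single-copy region, -0.25 over 41 windows of the small single-copy region and 0.17 over 49 windows of 1 copy of the inverted repeat, beside -0.09 over all windows. In the inverted repeat 13 windows rose and 0 fell. The number of higher windows depended on the libraries in the fit. Against 15 in the whole genome, 2 windows passed as higher without Col0 membrane replicate 1, 8 without replicate 2 and 8 without replicate 3. Without sig2-2 membrane replicates 1, 2 and 3 the numbers were 18, 13 and 3. The higher windows included a run at Pltd:91501-93500 in ycf2 and a run at Pltd:97501-99000 across rps7. In the small single-copy region 5 windows fell, among them a pair at Pltd:116001-117000 in ndhD, a subunit gene of the chloroplast NADH dehydrogenase-like complex. With division by the single-copy mean these medians became 0.02, -0.09 and 0.33, so the sign of the large single-copy median depended on the scale.

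Of 113 genes, 12 (10.6%) passed in the membrane, 2 (1.77%) higher and 10 (8.85%) lower, and in 23 genes (20.4%) the libraries of the genotypes did not overlap. With division by the median window 9 genes passed, 0 higher and 9 lower, and with division by the single-copy mean 20 passed, 11 higher and 9 lower. Among 30 tRNA genes 7 fell, 0 rose and 23 did not pass, and their median log2 change of -0.04 was close to -0.05 over all genes. The 7 were trnG, trnV, trnM, trnY, trnS, trnL and trnK. The calls went with gene length. Of 6 tRNA genes longer than 500 bp 4 fell, with a median log2 change of -0.42 and a median SE of 0.11. Of 24 shorter than 100 bp 3 fell, with a median log2 change of -0.02 and a median SE of 0.17. Gene names and locus tags are those of the gene table used.

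In trnG (ArthCt092), scaled coverage was 1.18, 1.15 and 1.10 in Col0 membrane and 0.670, 0.774 and 0.593 in sig2-2 membrane, a log2 change of -0.76 ± 0.11 (SE, adjusted p = 4.06e-05 in limma). In trnV (ArthCt103), which trnM separates from atpE, it was 1.20, 1.29 and 1.16 against 0.731, 0.898 and 0.648, a change of -0.70 ± 0.11 (adjusted p = 6.36e-05 in limma). The genotypes stood clear of each other in both genes. Its neighbour trnM (ArthCt104) had 1.27, 1.08 and 1.11 in Col0 and 0.680, 0.769 and 0.565 in sig2-2, the lowest log2 change of a called gene at -0.79 ± 0.18 (adjusted p = 0.00428 in limma). Without sig2-2 membrane replicate 3 the adjusted p of trnM was 0.0557.

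The cluster of trnD, trnY and trnE, genes for the tRNAs of aspartate, tyrosine and glutamate, did not move as 1 block. In trnY (ArthCt096) scaled coverage was 1.42, 1.38 and 1.46 in Col0 membrane and 0.922, 0.917 and 0.919 in sig2-2, a log2 change of -0.63 ± 0.11 (SE, adjusted p = 0.000331 in limma). In trnE (ArthCt097) it was 3.63, 3.36 and 3.55 against 2.76, 2.33 and 2.51, without overlap, but the change of -0.48 ± 0.22 did not pass (adjusted p = 0.199 in limma). In trnD (ArthCt095) it was 3.01, 2.43 and 2.70 against 3.13, 2.52 and 2.85, a change of 0.06 ± 0.17, and the genotypes overlapped. The photosystem I gene psaJ (ArthCp042) had 0.586, 0.588 and 0.457 in Col0 against 0.537, 0.587 and 0.436 in sig2-2, a change of -0.06 ± 0.15 that did not pass either. Of the 6 genes listed for sigma factor 2, 3 fell in the membrane and 3 did not pass, beside 10 (8.85%) of all 113 genes that fell. Apart from psaJ the listed genes are tRNA genes of the large single-copy region, where 7 of 22 tRNA genes fell. Whether the list differs from the other tRNA genes there was not tested.

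The remaining called tRNA genes fell by less. The trnS gene ArthCt117 went from 2.05, 1.84 and 1.69 in Col0 to 1.10, 1.33 and 1.23 in sig2-2, a log2 change of -0.61 ± 0.10 (SE, adjusted p = 6.36e-05 in limma). The trnL gene ArthCt101 changed by -0.41 ± 0.08 and trnK (ArthCt089) by -0.43 ± 0.11. The gene matK, which encodes a splicing factor and lies inside the intron of trnK, shares that coverage and changed by -0.49 ± 0.13. Of the other genes lower in the membrane, psbA, which encodes the D1 protein of photosystem II, had 1.49, 1.50 and 1.49 in Col0 and 1.27, 1.26 and 1.08 in sig2-2, a change of -0.32 ± 0.09, and ndhD changed by -0.38 ± 0.12. The 2 genes that rose encode proteins of the small ribosomal subunit: rps7 (ArthCp069) by 0.35 ± 0.10 and the rps12 entry ArthCp047 by 0.45 ± 0.13. Both lost the call when libraries were divided by their median window, and psbA lost it under that scaling and under division by the single-copy mean. Of the 12 membrane calls, those of trnG, trnV, trnY, trnS and trnL held under all 20 alternatives run for the membrane and those of trnM under 19, trnK under 18, matK under 16, rps7 under 15, rps12 and ndhD under 14 and psbA under 13.

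**Figure D2:**
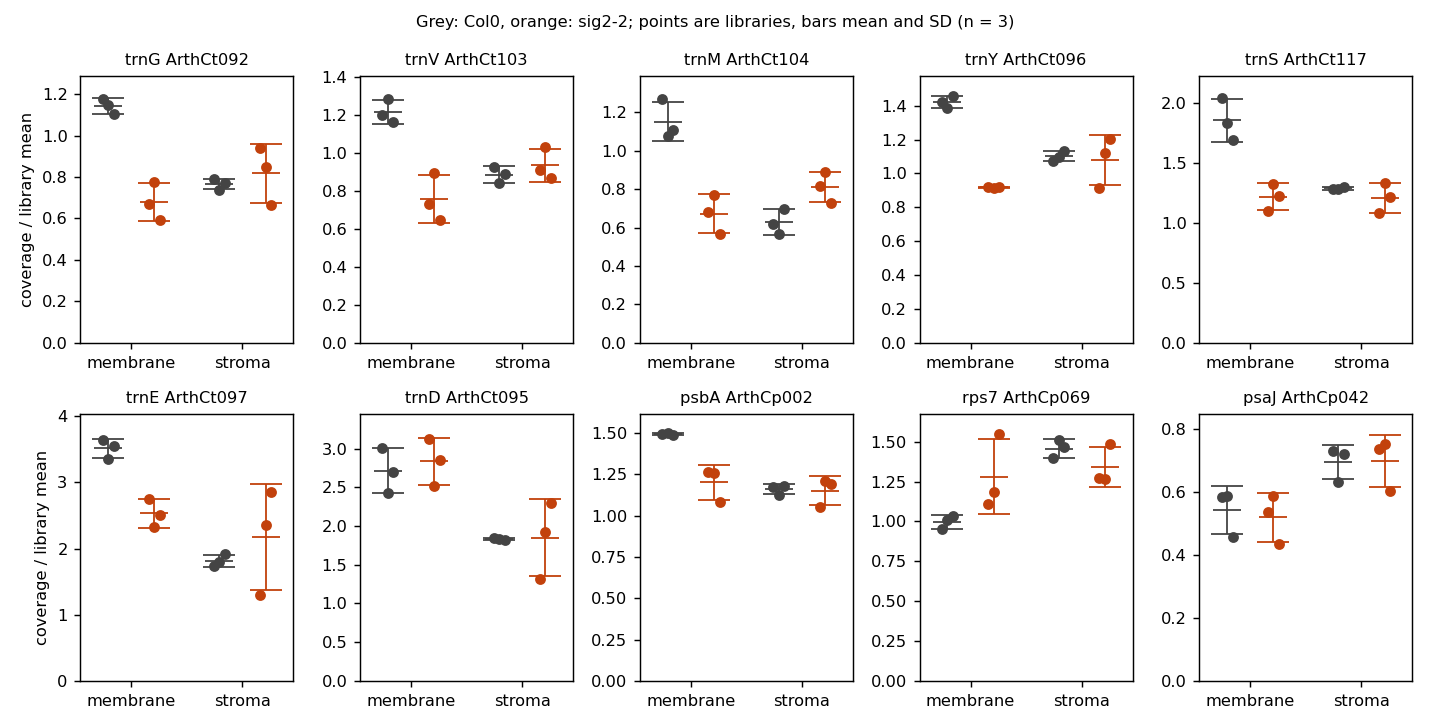
Coverage of 10 genes divided by the mean of the library, by fraction, with each library as a point and mean and SD as bars (n = 3 per group). In trnG, trnV, trnM, trnY, trnS, trnE and psbA the sig2-2 membrane libraries lie below all Col0 membrane libraries, in trnD and psaJ the genotypes overlap in both fractions, and rps7 is higher in sig2-2 membrane.

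Among 27 genes of the photosystems, the cytochrome b6f complex and rbcL, psbA fell and 26 did not pass, with a median log2 change of -0.03 and a range of -0.80 to 0.12. The lowest value belonged to petG, a small subunit of the cytochrome b6f complex, and lay below that of every called gene without passing (-0.80 ± 0.30 SE, adjusted p = 0.101 in limma). Its scaled coverage was 0.624, 0.620 and 0.599 in Col0 and 0.394, 0.512 and 0.217 in sig2-2, without overlap. Other short genes with low values that did not pass were petL at -0.69 ± 0.41, psbT at -0.55 ± 0.25, psbI at -0.48 ± 0.19 and psbM at -0.42 ± 0.20, and these were named after their values were seen. Of the genes chosen as representatives, the values were 0.05 for rbcL, 0.00 for psaA, 0.09 for psbB, 0.05 for psbD and -0.08 for petB, and 0.03 for atpB of the ATP synthase. None of 8 gene entries read mainly by the nuclear-encoded polymerase passed, with a median of 0.02. Single values were 0.06 for rpoB, 0.01 for rpoC2, -0.10 for clpP, -0.08 for accD, -0.25 for the longer entry of ycf1 and 0.23 for ycf2. In the inverted repeat rpl2 changed by 0.27, ndhB by 0.21, rrn16S by 0.15 and rrn23S by 0.09, and in the large single-copy region rps4 by 0.02, none of which passed.

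At 50-bp resolution the change was uneven along the tRNA loci. Of 14 tRNA genes in the stretches plotted, 9 had a log2 difference below 0 in every bin they overlapped in membrane. The other 5 (trnD, trnT, trnQ, the trnS gene ArthCt125 and ArthCt100) had bins between -0.31 and 0.13. The stretches were centred on loci that held lower windows. Bins outside tRNA genes were below 0 in many places too, such as -1.02 at -1240 bases from the lower end of trnE. No share over those bins was computed, so the counts are a description. The lowest bin of the trnE locus lay outside the gene, 160 bases from its lower end in genome coordinates, where mean scaled coverage in membrane was 0.411 in Col0 and 0.110 in sig2-2, a log2 difference of -1.91. In stroma the same bin had 0.186 in Col0 and 0.385 in sig2-2. The lowest bin of the trnG locus lay within trnG, 80 bases from its lower end, with membrane means of 1.10 and 0.396. That of the trnL locus lay beyond trnF, 1382 bases from the lower end of trnL, with 0.965 and 0.342. These bins were picked as the lowest of each locus and are given as a description.

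**Figure D3:**
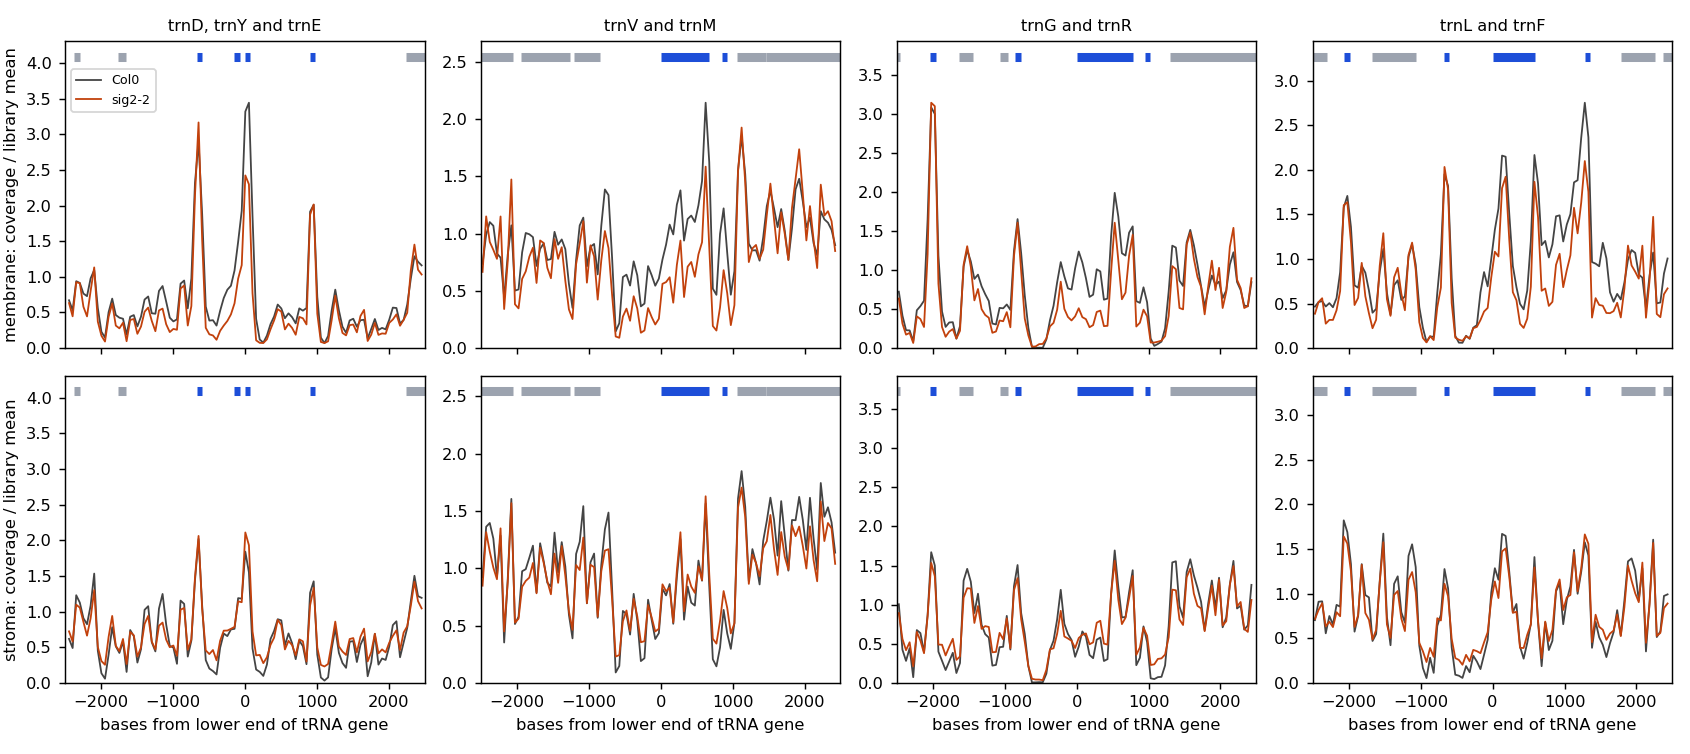
Mean scaled coverage (3 libraries per line) of Col0 in grey and sig2-2 in orange in 50-bp bins around 4 tRNA loci, by distance in bases from the lower end of the gene in genome coordinates, with membrane above and stroma below. Blue blocks are tRNA genes and grey blocks other genes; in membrane the orange line runs below the grey one through trnV, trnG and the gap from trnL to trnF, while the lines cross at trnD.

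In the stroma fraction no window and no gene passed. Of 259 windows 0 (0%) and of 113 genes 0 (0%) had an adjusted p under 0.05 in limma, the only test run, and 10 windows and 4 genes had an unadjusted p under 0.05. The 5 genes with the lowest unadjusted p did not pass either. They were rpl32, with a log2 change of -0.37 ± 0.12 (SE), ycf4 with -0.22 ± 0.08, psbK with -0.19 ± 0.08, psbF with -0.20 ± 0.10 and trnM with 0.37 ± 0.18. In trnM scaled coverage was 0.619, 0.564 and 0.699 in Col0 stroma and 0.817, 0.887 and 0.729 in sig2-2 stroma, without overlap, as in 15 of 113 genes (13.3%) in this fraction. At trnE the sig2-2 stroma libraries spread from 1.30 to 2.86 and the Col0 ones from 1.73 to 1.92, a change of 0.19 ± 0.22. In trnY the change was -0.04 ± 0.11 and in trnD -0.03 ± 0.17. The fit shares 1 estimate of the spread, so each gene has the same SE in stroma as in membrane.

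The difference between the fractions was tested as the change of the log2 membrane/stroma ratio. Of 259 windows 16 (6.18%) passed in limma, with 3 (1.16%) higher and 13 (5.02%) lower in sig2-2, and of 113 genes 5 (4.42%) passed, all lower and all tRNA genes. With division by the median window 23 windows passed, with 1 higher and 22 lower. With division by the single-copy mean 26 windows passed, with 11 higher and 15 lower, and 13 genes, with 8 higher and 5 lower. For trnM the ratio changed by -1.16 ± 0.26 (SE, adjusted p = 0.00543 in limma), the lowest of the called genes, with coverage lower in all sig2-2 membrane libraries and higher in all sig2-2 stroma libraries than in Col0. For trnG it changed by -0.84 ± 0.16 (adjusted p = 0.00173 in limma) and for trnV by -0.77 ± 0.16 (adjusted p = 0.00272 in limma). These 3 genes passed under all 21 alternatives run for the ratio, which include leaving out each of the 12 libraries. For trnY the change was -0.59 ± 0.16 (adjusted p = 0.0294 in limma, up to 0.197 over the alternatives, of which 11 of 21 kept the call). For trnS ArthCt117 it was -0.51 ± 0.14 (adjusted p = 0.0292 in limma, up to 0.149, with 14 of 21 keeping the call). The gene trnE, at -0.66 ± 0.31, trnD, at 0.09 ± 0.24, and psaJ, at -0.07 ± 0.21, did not pass. The windows lower in the ratio lay in 8 stretches, of which 7 held a tRNA gene, and 10 of the 13 windows themselves held one, against 15.8% of all windows. The pair at trnY and trnE changed by -0.90 and -0.89.

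The counts depended on single libraries. In membrane, 19 windows passed without Col0 membrane replicate 1, 29 without replicate 2, 32 without replicate 3, 21 without sig2-2 membrane replicate 3 and 88 without sig2-2 membrane replicate 2. Of the 12 membrane genes, 7 passed without Col0 membrane replicate 2 and 5 without sig2-2 membrane replicate 3, and 30 genes passed without sig2-2 membrane replicate 2. For the ratio, as few as 9 windows passed when replicate 1 of sig2-2 stroma was left out and as many as 39 when its replicate 3 was left out, against 26 without replicate 2 of sig2-2 membrane and 10 without its replicate 3, without replicate 3 of Col0 membrane or without replicate 3 of Col0 stroma. Of the ratio genes, 3 passed without replicate 1 of Col0 membrane, replicate 1 or 2 of Col0 stroma or replicate 2 of sig2-2 stroma, 9 without replicate 3 of sig2-2 stroma and 10 without replicate 2 of sig2-2 membrane. When the fit held only the 12 libraries compared, 17 windows and 7 genes passed in membrane and 7 windows and 4 genes for the ratio.

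Windows of the large single-copy region holding a tRNA gene were lower as a group. All 30 had a log2 change below 0 in membrane, with a median of -0.43, and 22 of them fell. Of the 139 other windows of that region 98 were below 0, with a median of -0.09, and 8 fell. In the inverted repeat 0 of 9 tRNA windows fell, with a median of -0.0004, and in the small single-copy region 1 of 2 fell. Gene bodies were less uniform. Of 22 tRNA genes of the large single-copy region 15 were below 0 and 7 above, with a median of -0.18, and 7 fell. The membrane change also ran with the coverage level: its correlation with the log2 level of the Col0 stroma libraries, which are not part of the membrane comparison, was r = 0.50 over 169 windows of that region. These windows share libraries and neighbouring windows share fragments. When the windows were split into 4 bins of that level, the tRNA windows had the lower median in each bin that held both kinds. In the lowest bin the median was -0.42 over 14 tRNA windows and -0.25 over 29 others, in the second -0.57 over 7 and -0.14 over 35, and in the third -0.43 over 9 and -0.05 over 33. The highest bin held 0 tRNA windows and 42 others with a median of 0.01. Whether base composition has a part in the change was not tested.

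**Figure D4:**
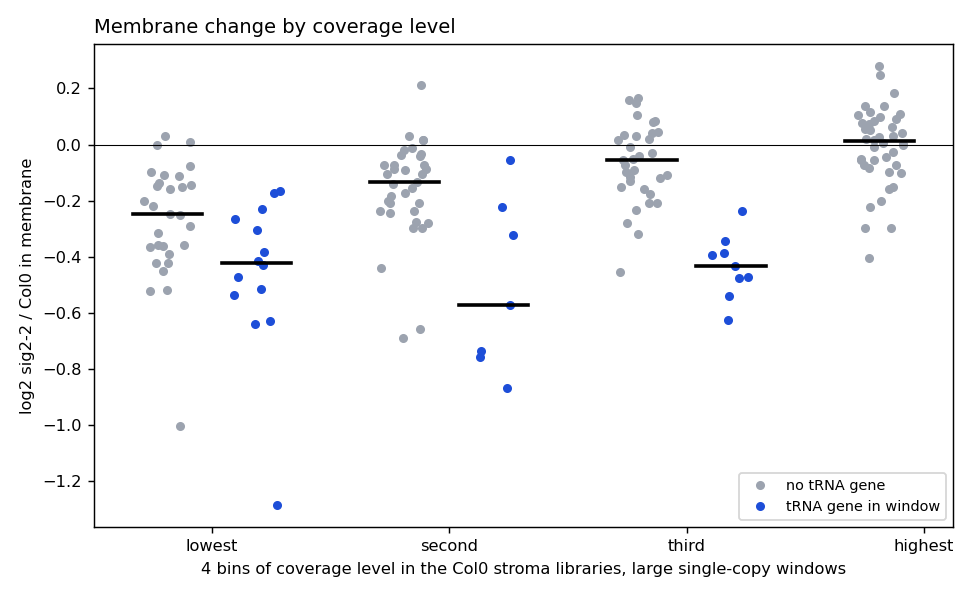
Log2 coverage change of sig2-2 against Col0 in membrane for windows of the large single-copy region, split into 4 bins of their level in the Col0 stroma libraries. Points are windows, blue with and grey without a tRNA gene, and black bars are medians, which are lower for the blue points in each of the 3 bins that hold both.

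Windows mostly outside annotated genes were lower too. Among windows of the large single-copy region with at least 50% of their bases outside genes, the median membrane change was -0.39 over 18 tRNA windows and -0.28 over 35 others. Among windows with under 20% outside genes it was -0.51 over 6 tRNA windows and -0.03 over 74 others. Part of the lower coverage in sig2-2 membrane thus lay in windows without a tRNA gene and mostly outside annotated genes. The called ones lay mainly beside tRNA windows. In the large single-copy region 7 of 23 windows next to a tRNA window fell, with a median of -0.29. Of 116 windows neither in nor next to one, 1 fell, with a median of -0.07.

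A ratio within each library, which does not depend on its scaling, set the geometric mean of the 30 tRNA windows against that of the 139 other windows. It was 1.27, 1.24 and 1.275 in Col0 membrane and 1.00, 0.955 and 1.02 in sig2-2 membrane. In stroma it was 0.794, 0.818 and 0.801 in Col0 and 0.894, 0.860 and 0.859 in sig2-2. The genotypes did not overlap in either fraction, and they moved in opposite directions. Replicate 2 of sig2-2 membrane, as even as the wild type, had the lowest of these membrane values. Whether the evenness of coverage has a part in this ratio was not tested. In the other membrane groups examined the ratio was 0.934 to 0.979 in sig6-1 seedlings, 0.964 to 1.025 in Day leaves, 0.862 to 0.983 in Night leaves, 0.970 to 1.005 in the Col0 seedlings of the second set and 0.897 to 0.999 in the sig2-2 seedlings of the second set. The Day and Night leaves came from older plants than the seedlings, and the Night plants were kept in darkness. Among the membrane groups examined, the Col0 seedling membrane libraries of the first set were thus the ones that stood apart. They were the controls of the membrane changes given above and of the membrane side of the ratio changes.

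The same comparison for sig6-1, a mutant of another sigma factor, uses the same Col0 libraries, so its values are given side by side only. Against Col0 in membrane, sig6-1 changed by -0.59 in trnG, -0.45 in trnV, -0.67 in trnM, -0.48 in trnY and -0.38 in trnE. The direct difference of sig2-2 and sig6-1, added after the data were seen, gave 0 windows (0%) and 0 genes (0%) in membrane, stroma or ratio in limma, with 25, 13 and 45 windows and 9, 6 and 27 genes at an unadjusted p under 0.05. It was -0.17 ± 0.11 (SE) in membrane for trnG, -0.24 ± 0.11 for trnV, -0.12 ± 0.18 for trnM and -0.15 ± 0.11 for trnY. For the ratio it was -0.49 ± 0.26 in trnM. No change in sig2-2 can therefore be called particular to it, and the misses do not show that the mutants act alike.

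The second set holds 4 libraries per group of Col0 and sig2-2 seedlings, prepared by a protocol in which whole seedlings were crosslinked before grinding. It also holds 4-day-old seedlings of the genotypes chl27 and chlm. The set was fitted on its own, with 1 mean per group over the 31 libraries used. The spread behind its SEs and p-values thus includes the chl27 and chlm libraries. In membrane 0 of 113 genes (0%) passed in limma, with 4 at an unadjusted p under 0.05. The membrane change was -0.02 ± 0.08 (SE) in trnG, 0.01 ± 0.06 in trnV, -0.29 ± 0.21 in trnM, -0.11 ± 0.12 in trnY and -0.30 ± 0.20 in trnE. In stroma 22 of 113 genes (19.5%) passed, with 14 higher and 8 lower (32 and 46 with the replicate number as a block), among them trnE at 0.59 ± 0.20, trnY at 0.41 ± 0.12 and trnV at 0.32 ± 0.06. For the ratio 1 gene (0.885%) passed, trnT ArthCt098, which did not pass in the first set, and the values were -0.89 ± 0.28 in trnE, -0.52 ± 0.17 in trnY, -0.31 ± 0.08 in trnV, -0.10 ± 0.30 in trnM and -0.09 ± 0.11 in trnG. The ratio was below 0 at these genes in both sets, but so it was in the second set at 27 of 30 tRNA genes and at 54 of all 113 genes, and 42 of 113 genes had the same sign in both sets. In windows, 3 of 259 (1.16%) passed for the ratio in the second set, all lower, and all 3 were among the 16 of the first set. With the replicate block 93 windows (35.9%) passed, 60 higher and 33 lower, and these 3 were still among the lower ones. They were the trnY and trnE window at Pltd:30001-30500, with -0.90 in the first set and -0.29 in the second, and the windows at Pltd:47501-48000 and Pltd:48001-48500 before and at trnF, with -0.78 and -0.76 in the first set and -0.45 and -0.37 in the second. In these 3 windows the second set had membrane changes of -0.14, -0.09 and -0.06 and stroma changes of 0.15, 0.36 and 0.31. Whether the sets differ was not tested.

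In the second set the deviations of same-numbered libraries correlated between 0.13 and 0.97. Whether the numbers pair the samples was not tested, so counts with a block rest on an assumed pairing. With the number as a block, 0 genes passed in membrane, 78 (69%) in stroma, with 32 higher and 46 lower, and, with condition and number as the block, 54 (47.8%) for the ratio, with 27 higher and 27 lower, including trnE, trnY and trnV but not trnM or trnG. Over all 113 genes the ratio changes of the sets had a correlation of r = -0.13, given as a description since genes share libraries.

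**Figure D5:**
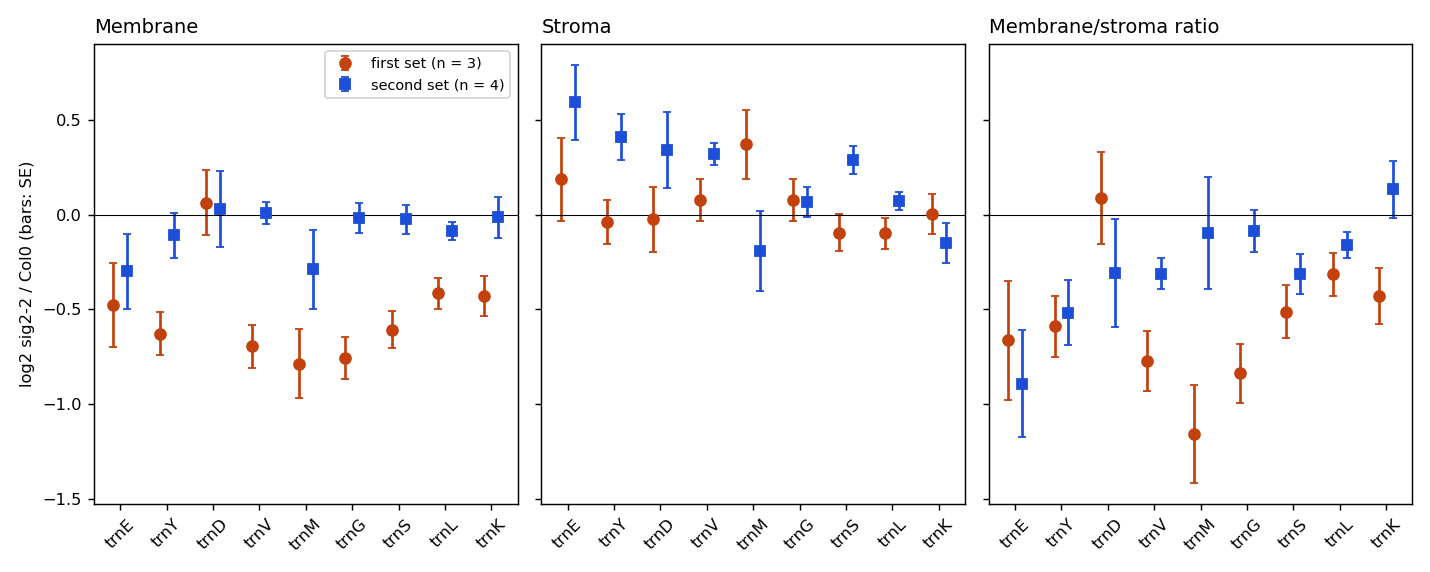
Log2 coverage change of sig2-2 against Col0 with its SE for 9 tRNA genes in the first set (orange circles, n = 3 per group) and the second set (blue squares, n = 4 per group). In membrane trnV, trnG and trnS lie well below 0 in the first set and near 0 in the second, and in stroma trnE, trnY and trnV lie above 0 in the second.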

How the data were processed

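For each library the deposited tables hold a column of coverage at every plastid position, with positions labelled TAIR10 per the file headers. Trim Galore 0.4.1, Bowtie2 and bedtools 2.25.0 are named in the submitters' processing notes. Duplicate removal, read length and the placement of reads shared by repeat copies are not given in the sources used here, so no interval from counts was computed. 1 column of the series held running positions and was not used.

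Coverage was averaged over 309 windows of 500 bp and over gene bodies, divided by each library's mean over windows and taken as log2. No value was 0. The 50 windows and the genes of the second inverted repeat copy were left out because copies cannot be told apart, leaving 259 windows and 113 genes. The gene table names assembly TAIR10.1 and gives no anticodons. Its inverted repeat and that of the coverage have the same mirror axis, so it was used for names, for which windows hold a gene and for gene bodies, and no gene coordinate is printed.

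limma 3.58.1 in R 4.3.3 (two-sided, Benjamini-Hochberg within each comparison, threshold 0.05) fitted 1 mean per group to all 30 libraries of the first set, so the groups share 1 estimate of the spread, and was tested on simulated data. Figures used Python 3.11.15 and matplotlib 3.10.9. The members, gene lists and tests were chosen with earlier results of these data known. Genes are named if they belong to the sigma factor 2 list or to 19 representative genes, or if they are among the 8 called genes with the largest rise or fall of a comparison, or, where none was called, among the 5 lowest p. Other genes and windows named, the comparison with sig6-1, the second set, the bins of coverage level and the ratio within libraries were added after seeing the data.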

Additional observations from a re-analysis of the deposited data

Results flagged for a closer look

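At 5 tRNA genes the change in sig2-2 differed between the membrane and the stroma fraction by limma's test of that difference itself. The log2 change in membrane minus that in stroma was -1.16 for trnM ArthCt104, -0.84 for trnG ArthCt092, -0.77 for trnV ArthCt103, -0.59 for trnY ArthCt096 and -0.51 for trnS ArthCt117.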

How the results depend on the processing

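With the stroma comparison, 0 windows and 0 genes passed under every alternative run. In membrane, where 50 windows and 12 genes passed, 17 windows and 7 genes passed with only the 12 compared libraries in the fit, 88 windows with 200-bp windows, 26 with 1000-bp windows and 20 genes with division by the single-copy mean. For the ratio, where 16 windows and 5 genes passed, these settings gave 7 windows, 10 windows of 1000 bp, and 26 windows and 13 genes. The number of windows tested changes with window size, so counts at 200 and 1000 bp cannot be compared directly with those at 500 bp. With limma's array weights in the default method, whose estimate did not converge, 46 genes passed in membrane and 8 windows and 15 genes for the ratio. With the gene-by-gene method, chosen after those counts were seen, 101 windows and 26 genes passed in membrane and 55 windows and 15 genes for the ratio. Leaving out 1 library gave 19 to 88 windows and 5 to 30 genes in membrane and 9 to 39 windows and 3 to 10 genes for the ratio.

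Replicate numbers did not consistently pair the samples of the first set. Deviations of same-numbered libraries correlated between -0.55 and 0.24 for Col0 membrane and stroma and between -0.47 and 0.58 for those of sig2-2. Across genotypes they correlated between -0.01 and 0.59 in membrane and between -0.27 and 0.61 in stroma. With the replicate block across all groups 43 windows and 12 genes passed in membrane and 15 windows and 5 genes for the ratio. With the replicate block that pairs the fractions 32 windows and 11 genes passed for the ratio.

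Over 87 values of named genes, 33 changed sign under at least 1 alternative, all of 0.21 or less in size on the log2 scale and 0 of them past the threshold after the change. Leaving out 1 library, the membrane changes ranged from -0.176 to 0.0232 in accD, -0.0223 to 0.134 in atpB, -0.208 to -0.0231 in clpP, -0.227 to 0.0517 in petB, -0.0646 to 0.138 in psaA, -0.184 to 0.0581 in psaJ, -0.0635 to 0.189 in rbcL, -0.0154 to 0.164 in rpoB, -0.0621 to 0.0982 in rpoC2, -0.0399 to 0.0991 in rps4 and -0.0159 to 0.144 in trnD. In stroma they ranged from -0.0641 to 0.104 in psaJ, -0.202 to 0.202 in trnD, -0.0519 to 0.520 in trnE and -0.122 to 0.0773 in trnY, and for the ratio from -0.186 to 0.0561 in psaJ and -0.140 to 0.264 in trnD. Division by the single-copy mean gave 0.0831 in accD, 0.0621 in clpP, 0.0748 in petB and 0.0951 in psaJ in membrane, 0.0530 in psaJ for the ratio, and in stroma 0.0150 in trnD and 0.00126 in trnY. Division by the median window gave 0.0359 in trnD and 0.0222 in trnY in stroma. The array weights gave 0.0361 (default) and 0.0473 (gene by gene) in trnD and 0.000634 (gene by gene) in trnY in stroma. The causes were not tested.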
